A study of Mus musculus with 24 samples.

Results

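The nuclear-encoded genes of oxidative phosphorylation were followed across 3 sorted populations of mouse bone marrow and 3 states of the Mysm1 gene. Members were every gene whose symbol begins with Ndufa, Ndufb, Ndufc, Ndufs, Ndufv, Sdh, Uqcr, Cox4, Cox5, Cox6, Cox7, Cox8 or Atp5, together with Cyc1 and Cycs. This rule used names and no measured value, though it was chosen with earlier results of these data known. It took 96 of the 23364 genes counted. By complex they were 44 genes of complex I, 6 of complex II, 9 of complex III, 20 of complex IV, 16 of complex V and the single gene of somatic cytochrome c. The prefixes also take in 10 assembly factors, 8 tissue isoforms of complex IV and a supercomplex factor. These are labelled apart from the structural subunits, but sums, counts and medians of a whole complex include them. No counted symbol began with mt-, the prefix of mitochondrially encoded genes, and other names for those genes were not searched. The subunits made inside the organelle were not analysed here.

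Haematopoietic stem cells (HSC) and the multipotent progenitors MPP1 and MPP2 were sorted from C57BL/6 marrow. All had Kit, Sca-1 and CD150 on their surface and lacked Flt3 and lineage antigens. HSC lacked CD34 and CD48, MPP1 had CD34 without CD48, and MPP2 had both. The knockout (KO) libraries came from Mysm1 fl/fl mice with CreERT2, a tamoxifen-activated recombinase whose driving promoter the labels do not give, and the heterozygous (Het) libraries from Mysm1 +/fl mice with CreERT2. Both received 8 intraperitoneal injections of tamoxifen at 0.15 mg per gram over 16 days, which removes exon 3 of floxed Mysm1, a gene for a histone H2A deubiquitinase. The Sham libraries came from Mysm1 fl mice, with no CreERT2 named in the labels, given corn oil alone, so that Sham differs from Het in genotype and in tamoxifen. Mice were 8 to 12 weeks old, of both sexes, and the cells of several mice were pooled into each library. Each cell type had 3 KO, 3 Het and 2 Sham libraries, 24 in all, described by their submitters as independent samples, and p-values measure the spread between such pools.

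Oxidative phosphorylation is the last stage of respiration. Complex I (NADH dehydrogenase) and complex II (succinate dehydrogenase) pass electrons to ubiquinone, complex III hands them to cytochrome c, and complex IV (cytochrome c oxidase) gives them to oxygen. Protons pumped on the way drive complex V, the ATP synthase, whose Fo rotor sits in the inner membrane below the catalytic F1 head. Quiescent HSC are known for relying less on this pathway than the progenitors they give rise to, although they need functional mitochondria to differentiate.

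Library totals ran from 18823971 to 53196624 counts, and 15740 to 21150 genes had at least 1 count. The HSC KO library numbered 1 and the HSC Het library numbered 2_3 were lowest in detected genes. Levels are given in CPM, counts scaled to a common library size by TMM. Mysm1 read 96.3 to 121 CPM in HSC KO libraries and 109 to 138 CPM in HSC Het, 76.7 to 119 CPM and 115 to 118 CPM in MPP1, and 88.1 to 102 CPM and 98.5 to 112 CPM in MPP2. Its KO change of −0.18, −0.20 and −0.15 on the log2 scale did not pass (adjusted p by edgeR = 0.635, 0.655 and 0.993). Whole-gene counts of Mysm1 include every exon that remains after exon 3 is removed, so they do not check the deletion. Cd48, the gene of the antigen that sets MPP2 apart, was higher in MPP2 than in HSC among Het libraries by 3.58 ± 0.86 on the log2 scale (± is an approximate standard error for every log2 value below), with an adjusted p of 0.00721. Cd34 was higher in MPP1 than in HSC by 0.82 ± 0.41, which did not pass (adjusted p = 0.534). Other sort genes did not follow the gates. Ly6a, the gene of Sca-1, on which all 3 populations were gated, read 23.97 to 25.01 CPM in HSC Het and 1.06 to 5.04 CPM in MPP2 Het (−3.19 ± 0.42, adjusted p = 5.85e-06). Flt3, whose product the gates left out, read 17.9 to 24.8 CPM in HSC Het and 4.5 to 98 CPM in MPP2 Het (adjusted p = 0.441). The stem cell genes Procr, Mecom and Hlf were each lower in MPP2 than in HSC among Het libraries, with changes of −5.09, −2.96 and −2.35 on the log2 scale.

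Members together took 0.62% to 1.05% of a library's counts. In HSC the 3 KO libraries gave them 0.866%, 0.808% and 0.854%, and the Het libraries 0.699%, 0.709% and 0.776%. In MPP1 the values were 1.05%, 0.837% and 0.856% in KO and 0.793%, 0.728% and 0.739% in Het. In MPP2 they were 1.03%, 0.904% and 0.963% in KO and 0.863%, 0.841% and 0.867% in Het. Every KO library thus lay above every Het library of its cell type, and the KO library numbered 1 was highest in each. The Sham libraries read 0.62% and 0.726% in HSC, 0.725% and 0.67% in MPP1, and 1.03% and 0.919% in MPP2. Sham lay below Het in MPP1 and below or among Het in HSC, and among the KO values in MPP2. In bulk RNA of sorted cells, fewer cells of a type and less RNA per cell cannot be told apart.

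**Figure D1:**
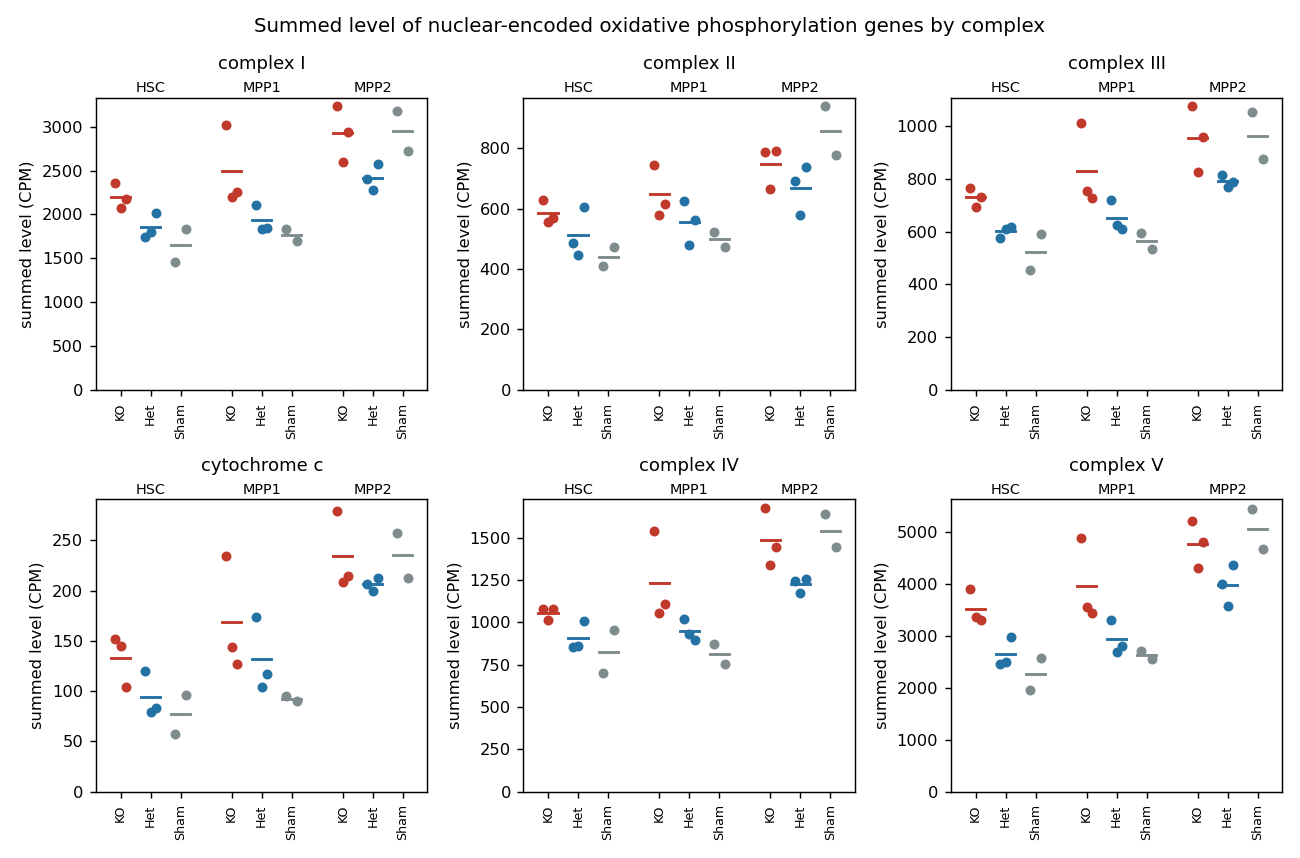
Summed CPM of the members of each complex (vertical axis, from 0) in the 24 libraries, grouped by cell type and by KO (red), Het (blue) and Sham (grey). Each point is a library and each line a group mean. Mean complex V is 2641 CPM in HSC Het and 3979 CPM in MPP2 Het, and KO means stand above Het means in every panel.

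Complex V held the largest part of this expression and cytochrome c the smallest. In HSC Het libraries complex V summed to 2641 ± 288 CPM (SD, n = 3), complex I to 1852 ± 144 CPM, complex IV to 907 ± 84.4 CPM, complex III to 602 ± 21.8 CPM and complex II to 513 ± 82.6 CPM. Cycs, the mobile carrier between complexes III and IV, stood at 94.2 ± 22.6 CPM. Corrected for exon length, the most abundant member of complex V was Atp5b, the catalytic beta subunit, at a mean of 617 CPM per kilobase over the 24 libraries. Cox6c led complex IV at 362 CPM per kilobase, Uqcrb complex III at 315, Ndufb4 complex I at 179 and Sdha, the flavoprotein of complex II, at 125. The least abundant tested members were assembly or related factors in complexes II and V, Sdhaf2 at 8.69 and Atp5s at 5.77 CPM per kilobase. In complex III the lowest was Cyc1, the haem-bearing cytochrome c1, at 29.3 CPM per kilobase.

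Of the 96 members 94 passed the filter on low counts. Cox8c had 19 counts in all 24 libraries. Ndufs5, an accessory subunit of complex I that every respiring cell is thought to need, is listed at 0 in all 24. Of the 50-base words of its transcript, 80% also occur elsewhere in the mm9 genome. Atp5g2, with 100% of its words elsewhere, and Atp5l, with 89.4%, were nonetheless counted in every library. The cause of the 0 counts of Ndufs5 was not tested.

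Complex IV subunits with a broadly expressed form and a tissue form were almost wholly of the broad form, with 1 exception. Cox4i1 made up 99% of Cox4 expression per kilobase on average, Cox6a1 99.7%, Cox7a2 98.7%, Cox7b 99.4%, Cox8a 99.9% and Ndufa4 99.5%. The muscle and heart forms Cox6a2, Cox7a1 and Cox8b had group means under 0.5 CPM. The exception was Cox6b2, known as a testis form of the subunit that joins complex IV dimers, which averaged 15.6% of Cox6b over all libraries and ranged from 5.73% to 24.6%. Its share was 12% ± 5.49 (SD, n = 3) in HSC Het, 13.9% ± 0.965 in MPP1 Het and 21.5% ± 3.54 in MPP2 Het. The lowest MPP2 Het library, at 17.6%, lay above the highest HSC Het library, at 15.7%. Cox4i2, the lung and hypoxia-associated form, took 1.95% ± 0.693 of Cox4 in HSC Het and 0.288% ± 0.286 in MPP2 Het. Ndufa4l2, a paralogue of Ndufa4 known as a hypoxia target, had 47 counts in the 3 HSC Het libraries and 0 in the 3 HSC KO libraries. The Het libraries numbered 1, 2_3 and 4 read 0.38, 1.27 and 0 CPM. The test of Ndufa4l2 did not pass (adjusted p by edgeR = 0.206).

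The Atp5g1, Atp5g2 and Atp5g3 genes encode the same c subunit of the Fo rotor ring. Atp5g3 and Atp5g2 shared most of it, with means of 46.9% and 45.9% per kilobase over the 24 libraries, and Atp5g1 held 7.18%. Atp5g1 held 7.51% ± 2.85 in HSC Het, 6.42% ± 0.233 in MPP1 Het and 9.83% ± 0.438 in MPP2 Het. In MPP2 the KO libraries gave it 7.25% to 8.25% and the Het libraries 9.35% to 10.2%, without overlap. All 50-base words of the Atp5g2 transcript and 73.8% of those of Atp5g1 occur elsewhere in the genome, against 0% for Atp5g3, and how the authors counted reads with more than one match is not given in the sources used here.

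**Figure D2:**
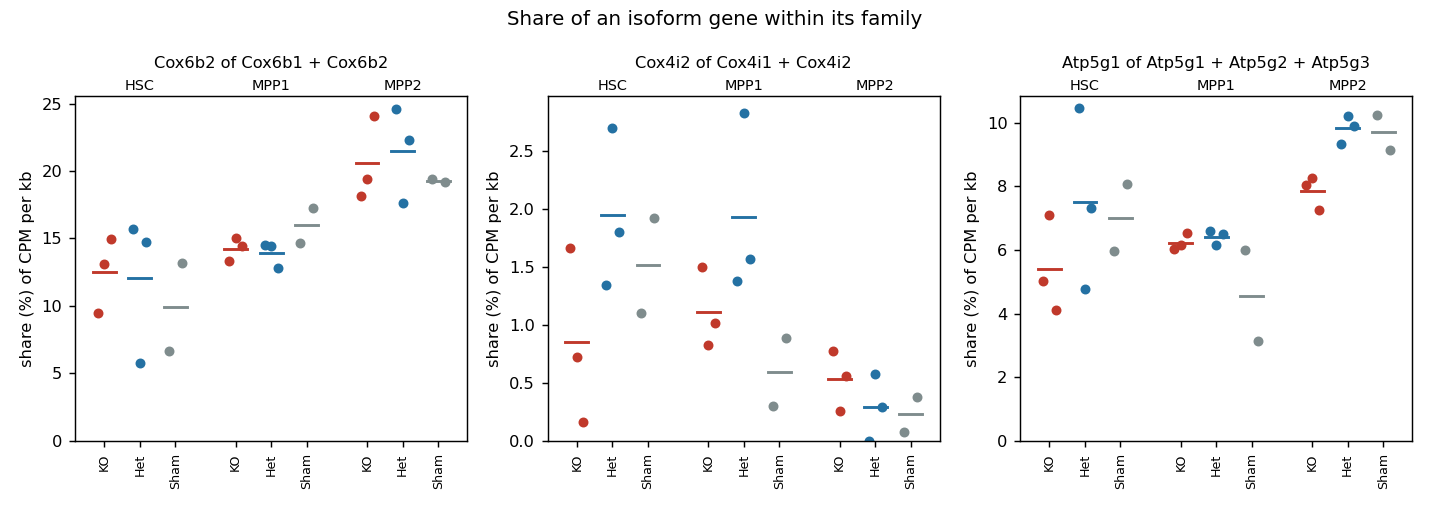
Share of an isoform gene in the summed CPM per kilobase of its family (vertical axis, percent, from 0) for Cox6b2, Cox4i2 and Atp5g1 in the 24 libraries, with group means as lines. MPP2 libraries of all 3 genotypes hold more Cox6b2, with Het at 21.5% on average against 12% in HSC Het.

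Loss of Mysm1 was compared with the heterozygous state in each cell type. Most members read higher in KO: 82 of 94 in HSC, 83 in MPP1 and 88 in MPP2. Their median log2 change was 0.31, 0.38 and 0.27, where the median of all 21456 genes tested was 0.03, −0.11 and −0.06. No single member passed the threshold in any cell type by edgeR's quasi-likelihood test with Benjamini-Hochberg adjustment over all genes, and DESeq2 called 0 in each as well. On the authors' deposited normalized values limma called 3 in HSC, 0 in MPP1 and 0 in MPP2. Among all genes 0.322% rose in HSC, 0.0326% in MPP1 and 0.378% in MPP2. At an unadjusted p under 0.05 the members counted 33 in HSC, 42 in MPP1 and 16 in MPP2, against 14.5%, 8.67% and 5.63% of all genes.

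Groups without overlap were counted as a second description. Every KO library lay above every Het library for 30 of 94 members in HSC, 35 in MPP1 and 29 in MPP2, where 7.16%, 8.49% and 9.06% of all genes did so. The reverse held for 1, 2 and 0 members. In all 3 cell types at once KO lay above Het for 7 members, or 7.45%, against 0.881% of all genes: Atp5e, Atp5g3 and Atp5j of complex V, Cox5b and Cox6c of complex IV, Ndufa13 of complex I and Uqcrc1 of complex III. In sign alone 79 members were above 0 in all 3 comparisons and 3 below. Among the more abundant genes (a mean of at least 10 CPM) the median change was 0.09, 0.13 and 0.10 in HSC, MPP1 and MPP2. Among the 521 of those outside the members with exons of up to 1000 bases it was 0.18, 0.25 and 0.22, so that short abundant transcripts as a class also read higher in KO.

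**Figure D3:**
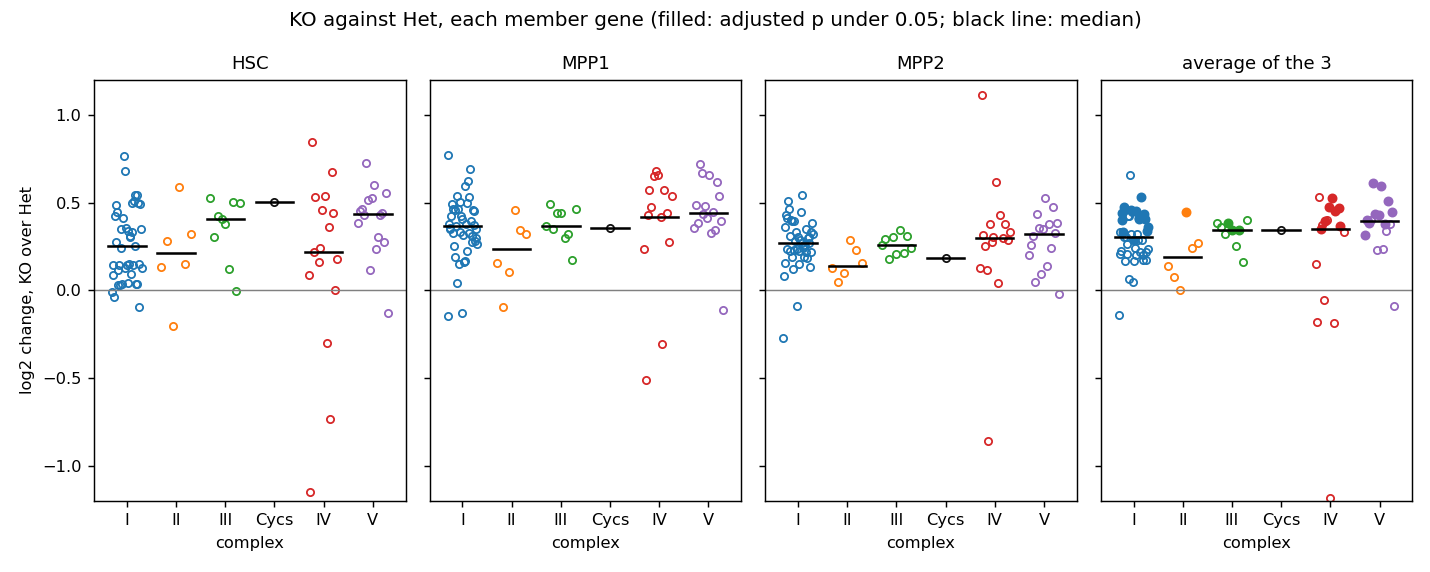
Fitted log2 change of KO over Het (vertical axis) for each member, by complex, in HSC, MPP1, MPP2 and averaged over the 3 cell types, with a black line at each median and filled points past the threshold. The axis ends at 1.2 on both sides, which leaves out 4, 5, 3 and 3 thinly counted members. Points lie mostly above 0 in every panel, and only the averaged comparison has filled points.

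To gain precision, the KO change was also averaged over the 3 cell types, a comparison chosen after the data had been seen. Of 94 members 35 rose and 0 fell, where 4.32% of all genes rose and 1.41% fell. All genes here include thinly counted ones, and shares among abundant genes alone are not given. The median log2 change was 0.34 against −0.05 for all genes. The count depended on the libraries numbered 1: without the 6 of them 3 members rose, among them Atp5k and Ndufb7. It was 10 without MPP1 KO library 1, 14 without MPP2 KO library 1, 22 without HSC KO library 1, 22 without MPP1 Het library 2_3 and 10 without both HSC libraries of fewest detected genes. The median stayed between 0.20 and 0.38 over these and the other alternatives. Whether same-numbered libraries of different cell types share mice is not stated, and if they do, these p-values are too small.

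Complex V moved most often, with 10 of 16 members rising on average over the cell types and a median of 0.39. Atp5g3 (mm9 chr2:73746504-73749383, minus strand), a c-ring gene, read 71.7, 56.6 and 55.65 CPM in HSC KO and 34.0, 42.0 and 45.2 CPM in HSC Het. In MPP1 it read 96.7, 58.7 and 71.1 CPM in KO and 47.4, 43.25 and 52.95 CPM in Het, and in MPP2 90.1, 68.1 and 75.5 CPM in KO and 59.1, 50.0 and 53.1 CPM in Het. All 9 KO values lay above the Het values of their cell type. Its change was 0.60 ± 0.10 averaged, or 1.51-fold, with an adjusted p of 0.000681, and within cell types 0.60 ± 0.18, 0.66 ± 0.18 and 0.53 ± 0.18 with adjusted p of 0.11, 0.248 and 0.41.

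Atp5e (mm9 chr2:174286573-174289606, minus strand), the epsilon subunit of the F1 stalk, rose by 0.61 ± 0.13 averaged (adjusted p = 0.00493). Its HSC values were 43.6, 27.6 and 29.2 CPM in KO against 16.6, 20.6 and 23.6 CPM in Het. The gap in MPP2 was narrow, with a lowest KO value of 37.3 CPM and a highest Het value of 36.1 CPM. Atp5b (mm9 chr10:127520329-127527447, plus strand) read 1172, 1133 and 1025 CPM in HSC KO against 772, 721 and 939 CPM in HSC Het, without overlap. In MPP2 its KO values of 1666, 1458 and 1660 CPM overlapped the Het values of 1389, 1144 and 1465 CPM, and its averaged change was 0.40 ± 0.09 (adjusted p = 0.00729). Atp5k, the e subunit near the dimer interface, rose by 0.51 ± 0.12, Atp5o (oligomycin sensitivity protein) by 0.44 ± 0.10, Atp5f1 (peripheral stalk subunit b) by 0.44 ± 0.10, Atp5c1 (the rotating gamma shaft) by 0.39 ± 0.10 and Atp5j (coupling factor F6) by 0.38 ± 0.10. The member least like these was Atp5s, a factor related by name, at −0.09 on average.

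Complex I rose on average in 14 of 43 tested members, 11 of 28 accessory subunits, 2 of 7 core subunits and 1 of 8 assembly factors, with a median of 0.30. Ndufc2 (mm9 chr7:104548513-104556312, plus strand), an accessory subunit of the membrane arm, read 44.5, 35.9 and 30.4 CPM in HSC KO and 22.7, 19.6 and 33.8 CPM in HSC Het, overlapping. In MPP1 it read 47.0, 37.7 and 36.5 CPM in KO and 27.5, 22.7 and 24.7 CPM in Het, without overlap. Its averaged change was 0.53 ± 0.12, adjusted p = 0.00701. Ndufa13, also known as GRIM-19, rose by 0.44 ± 0.10 and had no overlap in any cell type, with 88.2, 78.9 and 74.4 CPM in HSC KO against 42.2, 64.9 and 65.2 CPM in HSC Het.

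Other accessory subunits moved alike: Ndufb4 by 0.45 ± 0.11, Ndufs4 by 0.43 ± 0.11, Ndufb7 by 0.41 ± 0.10, Ndufs6 by 0.41 ± 0.11 and Ndufb8 by 0.40 ± 0.10. Ndufv1, the core subunit that binds NADH, rose by 0.34 ± 0.09 (adjusted p = 0.0236), a call lost under 10 of its 25 alternatives. Ndufaf4 (mm9 chr4:24825230-24832148, plus strand), an assembly factor, rose by 0.46 ± 0.12 (adjusted p = 0.0242), a call lost under 9 of 25. Within HSC it had the smallest p of any member, with 45.6, 37.4 and 35.0 CPM in KO against 24.4, 14.55 and 30.3 CPM in Het (0.77 ± 0.22, adjusted p = 0.0848).

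Complex II had the smallest share of members that rose, 1 of 6, with a median of 0.19. Both values count in its 2 assembly factors, so that median is not on the same footing as that of the common subunits of complex IV. That member was Sdhb (mm9 chr4:140517118-140535108, plus strand), the iron-sulfur subunit, at 83.5, 57.9 and 63.6 CPM in HSC KO against 48.55, 31.8 and 56.3 CPM in HSC Het. Its KO and Het values did not overlap in HSC or MPP1 and overlapped in MPP2, where the lowest KO value was 82.8 CPM and the highest Het value 83.9 CPM. The averaged change was 0.44 ± 0.11, adjusted p = 0.0125. Sdhc, a membrane anchor, had the smallest p of complex II in MPP2, at 0.23 ± 0.15 (adjusted p = 0.993).

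Complex III rose in 3 of 9 members, with a median of 0.35, and all 9 lay above 0 on average. Uqcrc1 (mm9 chr9:108838661-108851685, plus strand), a large core protein, had tight replicates, with 144, 124 and 137 CPM in HSC KO against 104, 101 and 106 CPM in HSC Het. In MPP2 the lowest KO value was 176 CPM and the highest Het value 170 CPM. It rose by 0.34 ± 0.08 averaged, adjusted p = 0.00809. Uqcrh, the hinge protein, led complex III in MPP2 at 0.31 ± 0.16 (adjusted p = 0.924) and read 164 CPM in both groups in HSC. Cycs did not pass on average over the cell types. It stood at 152, 145 and 104 CPM in HSC KO against 120, 79.6 and 82.8 CPM in HSC Het, overlapping, and its change was 0.50 ± 0.24, 0.35 ± 0.24 and 0.18 ± 0.24 in HSC, MPP1 and MPP2.

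Complex IV rose in 7 of 19 tested members, all of them among the 11 common subunits, with a median over the common subunits of 0.40. Cox6c (mm9 chr15:35855641-35868001, minus strand) read 194, 183 and 149 CPM in HSC KO against 137, 115 and 131 CPM in HSC Het. In MPP1 it read 286, 170 and 182 CPM against 162, 137 and 106 CPM, and in MPP2 306, 246 and 244.5 CPM against 216, 220 and 211 CPM. No cell type had overlap, and the averaged change was 0.47 ± 0.10 (adjusted p = 0.00644). Cox7a2 rose by 0.53 ± 0.14, Cox7c by 0.47 ± 0.12, Cox7b by 0.45 ± 0.11, Cox8a by 0.37 ± 0.09 and Cox5b, a zinc-binding matrix subunit, by 0.35 ± 0.09. None of the 7 tested tissue isoforms passed, 1 of them lay above 0 (Cox6b2, at 0.40 ± 0.17), and the others had group means of at most 3.18 CPM.

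**Figure D4:**
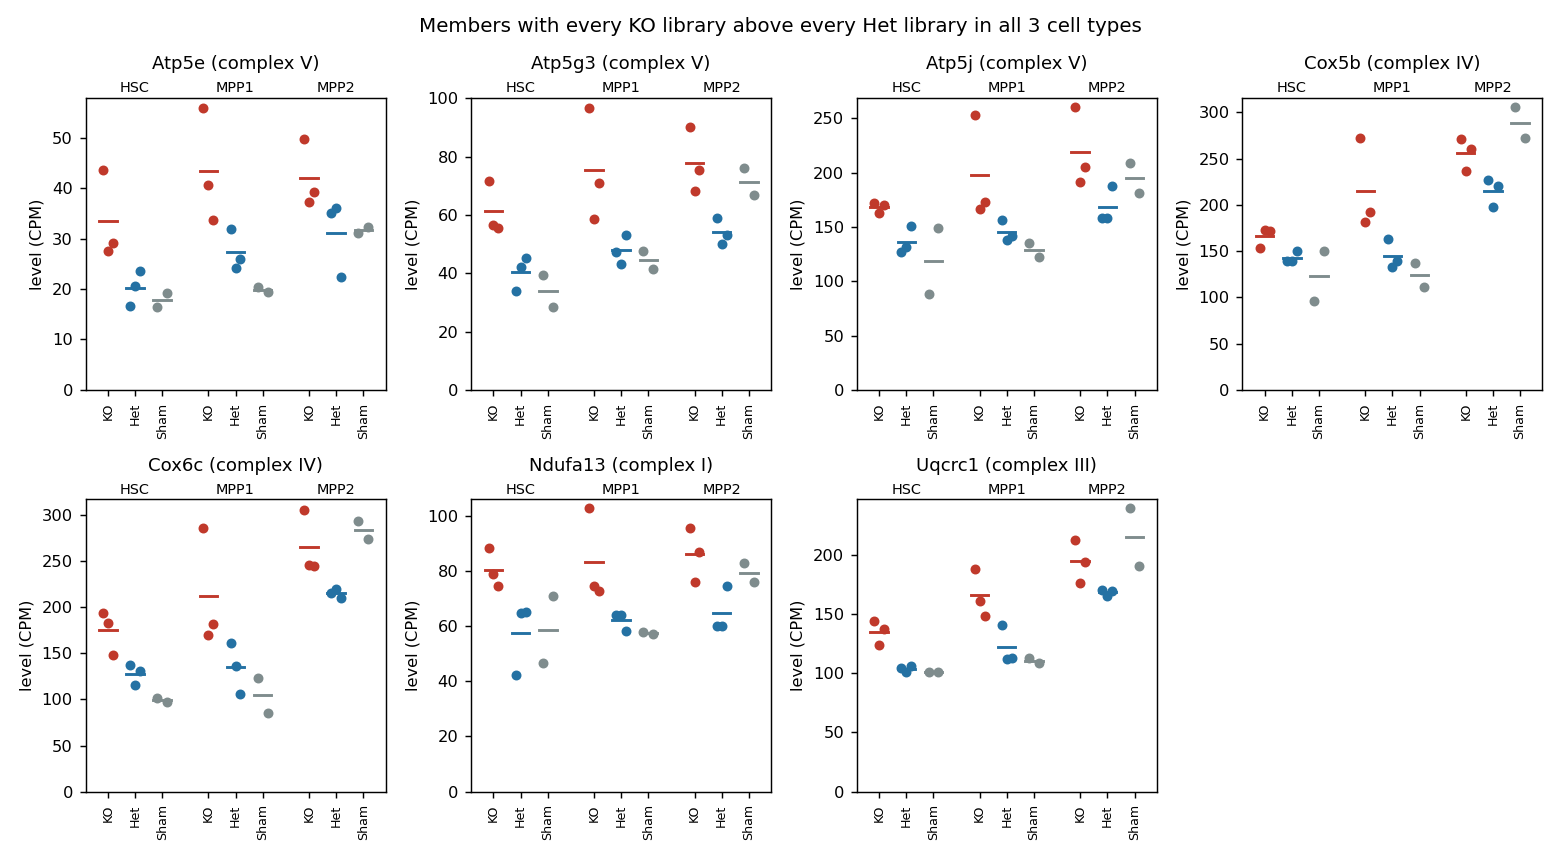
CPM (vertical axes, from 0) in the 24 libraries for the 7 members in which every KO library lay above every Het library in all 3 cell types, with group means as lines. Cox6c Sham (grey) reads 101 and 97.3 CPM in HSC, below its Het libraries, and 293 and 275 CPM in MPP2, above them.

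Markers of other cells moved with these groups, and their part in the results was not tested. The 4 megakaryocyte genes, led by Itga2b and Pf4, summed to 651 to 876 CPM in HSC KO and 121 to 330 CPM in HSC Het, and KO and Het overlapped in MPP1 and MPP2. Of the 7 late erythroid genes, Car1 and Ermap carried most of a sum of 7.17 to 11.45 CPM in MPP1 KO against 23.5 to 130 CPM in MPP1 Het, and 153 to 299.8 CPM against 398 to 617 CPM in MPP2. Hba-a1 and Hba-a2 are listed at 0 in every library, and Hbb-b1 did not exceed 0.122 CPM. The 8 neutrophil genes, Mpo foremost, summed to 91.5 to 146 CPM in MPP2 KO and 178 to 3060 CPM in MPP2 Het, the highest in Het library 2_3. Without that library 0 members passed in MPP2, and the median change was 0.23. Of the stem cell genes, Procr read 40.2 to 57.7 CPM in HSC KO against 65.9 to 114 CPM in HSC Het, and Mecom 210.4 to 242 CPM against 239 to 414 CPM, and neither passed the test (adjusted p by edgeR = 0.362 and 0.319). In MPP2 the direction was the other way. Mecom read 68.4 to 90.1 CPM in MPP2 KO against 35.95 to 50.1 CPM in MPP2 Het, without overlap, and Hlf 66.8 to 104 CPM against 29.3 to 67.5 CPM, and neither passed (adjusted p by edgeR = 0.11 and 0.296). T and NK genes summed to 11.3 to 15.1 CPM in MPP1 KO against 3.22 to 9.93 CPM in MPP1 Het. Nkg7 carried most of that sum, with means of 12.07 CPM in KO and 4.81 CPM in Het. The means of Cd3e were 0.382 and 0.198 CPM, of Cd3g 0.25 and 0.259 CPM, and of Gzmb 0.292 and 0.573 CPM. Macrophage, B cell and endothelial lists overlapped between KO and Het in each cell type. Of the sort genes, Cd48 read 34.0 to 56.9 CPM in MPP2 KO against 13.8 to 24.1 CPM in MPP2 Het. Slamf1, the gene of CD150, read 37.4 to 51.3 CPM against 20.2 to 27.5 CPM there, and Ptprc 263.7 to 287.1 CPM against 212.3 to 239.4 CPM. Kit, Ly6a, Cd34 and Flt3 overlapped between MPP2 KO and Het.

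A difference of the KO change between cell types was tested directly. For MPP1 minus HSC 0 of 94 members passed, with 0% of all genes, and for MPP2 minus HSC 0 passed, with 0.0326% of all genes. The median differences over members were 0.06 and −0.04. At an unadjusted p under 0.05 there were 1 and 2 members, against 4.87% and 7.29% of all genes, and no other tool was run on these differences.

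Comparison with Sham shares the KO libraries with the comparison above. It adds to the difference both the tamoxifen treatment and CreERT2, which the labels do not name for Sham. In HSC 5 members rose against Sham, where 1.9% of all genes did: Atp5g3 by 0.86 ± 0.20, Cox6c by 0.82 ± 0.20, Sdhb by 0.81 ± 0.21, Ndufa2, an accessory subunit of complex I, by 0.75 ± 0.20 and Atp5b by 0.71 ± 0.17. These 5 calls had adjusted p from 0.0228 to 0.039, and 0 remained without the filter on low counts. In MPP1 Atp5k (1.27 ± 0.24, adjusted p = 0.0226) and Cox6c (1.02 ± 0.20, adjusted p = 0.0314) rose, where 0.0792% of all genes did. In MPP2 0 members passed by edgeR, 0 had an unadjusted p under 0.05, and the median change was −0.02, where 0.489% of all genes rose and 5.73% had an unadjusted p under 0.05. No tool other than edgeR was run on the comparisons with Sham. Sham had no library numbered 1, the number of the KO library with the highest member share in each cell type. The comparisons were not run without those KO libraries.

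Het against Sham, which shares its libraries with both comparisons above, had 0 members past the threshold in each cell type, and 0% of all genes. At an unadjusted p under 0.05 there were 6 members in HSC, 3 in MPP1 and 19 in MPP2, against 6.92%, 0.965% and 5.32% of all genes. The median member changed by 0.15, 0.16 and −0.28 in HSC, MPP1 and MPP2, where the medians of all genes were 0.05, 0.03 and 0.14. Every Het library lay above every Sham library for 13 members in HSC and 29 in MPP1, against 7.41% and 8.75% of all genes. In MPP2 every Het library lay below every Sham library for 45 members, against 11.9% of all genes. Atp5b there read 1389, 1144 and 1465 CPM in Het and 2005 and 1721 CPM in Sham (−0.48 ± 0.17, adjusted p = 0.773). Uqcrc1 read 170, 165 and 170 CPM in Het and 239.6 and 190 CPM in Sham (−0.35 ± 0.15, adjusted p = 0.773). In MPP2, therefore, members in KO libraries read above Het and at the level of Sham, and late erythroid genes summed to 428 to 998 CPM in Sham. Tested as a difference between cell types, an addition made after the data had been seen, 0 members passed for MPP2 minus HSC and 0 for MPP2 minus MPP1. The median differences were −0.43 and −0.46, 27 and 16 members had an unadjusted p under 0.05, and 0% of all genes passed, with 9% and 3.6% under the unadjusted 0.05.

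The step from stem cell to progenitor was compared among Het libraries. In MPP2 against HSC 41 of 94 members rose and 1 fell, where 9.59% of all genes rose and 8.37% fell. Of the 21456 genes in those shares 11036 had a mean of at least 5 CPM. Shares among abundant genes alone are not given here. The median member was higher by 0.53, against −0.01 for all genes. Members that rose belonged to every complex: 15 of 43 in complex I, 2 of 6 in complex II, 5 of 9 in complex III, Cycs, 9 of 19 in complex IV and 9 of 16 in complex V. Leaving out a single library gave 25 to 39 risen members, the lowest without HSC Het library 2_3 or without MPP2 Het library 4. A fit of the compared groups alone gave 22, and leaving out both HSC libraries of fewest detected genes gave 26.

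Cycs rose from 120, 79.6 and 82.8 CPM in HSC Het to 207, 199.7 and 213 CPM in MPP2 Het, or by 1.13 ± 0.24 (adjusted p = 0.00159). Its gene lies at mm9 chr6:50512562-50516537 on the minus strand. Ndufaf4 went from 24.4, 14.55 and 30.3 CPM to 50.6, 52.5 and 59.9 CPM, a 2.35-fold change (1.23 ± 0.22, adjusted p = 0.000138). Ndufc2 went from 22.7, 19.6 and 33.8 CPM to 50.15, 53.6 and 61.4 CPM (1.12 ± 0.20, adjusted p = 0.000201). None of these 3 genes had overlapping values between the cell types.

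Within complex I the core subunit Ndufv1 rose by 0.78 ± 0.16, and the accessory subunits Ndufs6 and Ndufb8 by 0.80 ± 0.19 and 0.68 ± 0.17. Sdhd, an anchor of complex II, rose by 0.90 ± 0.24 and Sdhb by 0.74 ± 0.19. In complex III, Cyc1 rose by 0.97 ± 0.24, Uqcr10 by 0.88 ± 0.23, Uqcr11 by 0.76 ± 0.20, the Rieske protein Uqcrfs1 by 0.71 ± 0.18 and Uqcrc1 by 0.70 ± 0.14. Cox6b2 had the largest rise of a member that passed, from 12.2, 4.99 and 11.6 CPM in HSC Het to 33.2, 22.0 and 33.1 CPM in MPP2 Het (1.62 ± 0.30, adjusted p = 0.000225). Its gene lies at mm9 chr7:4703396-4704696 on the minus strand. The common subunits of complex IV rose in 8 of 11 cases, among them Cox5a by 1.23 ± 0.30, Cox7c by 0.83 ± 0.21, Cox8a by 0.82 ± 0.16, Cox6a1 by 0.80 ± 0.22, Cox6c by 0.75 ± 0.18 and Cox5b by 0.59 ± 0.16. In complex V, Atp5o rose by 0.74 ± 0.17, Atp5k by 0.73 ± 0.21, Atp5b by 0.72 ± 0.15 and Atp5a1, the alpha subunit of F1, by 0.54 ± 0.15.

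The member that fell was Cox7a2l (mm9 chr17:83901259-83913673, minus strand), known for its role in joining complexes III and IV into supercomplexes. It read 129, 185 and 199 CPM in HSC Het and 92.4, 102 and 114 CPM in MPP2 Het, without overlap (−0.73 ± 0.18, adjusted p = 0.0038). Of its 50-base words 54.3% also occur elsewhere in the genome.

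**Figure D5:**
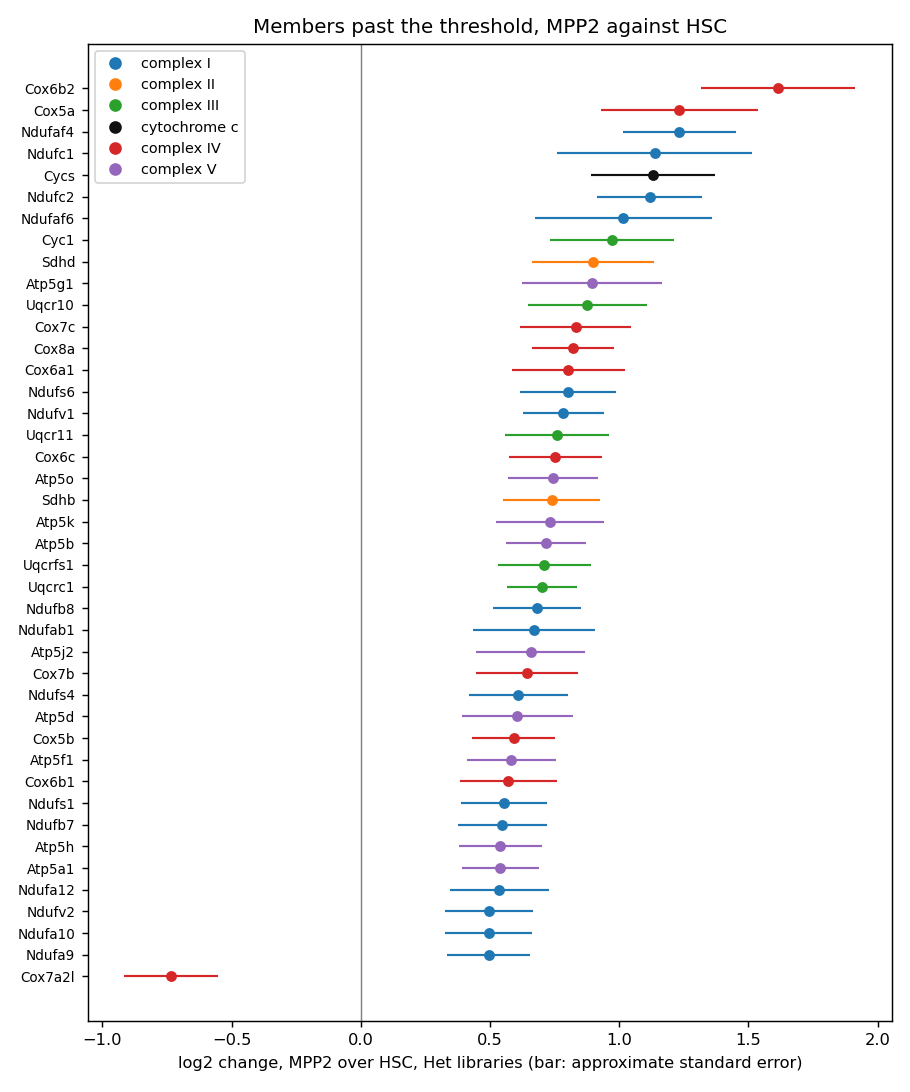
Log2 change of MPP2 over HSC among Het libraries (horizontal axis, bars are approximate standard errors) for the 42 members past the threshold, coloured by complex. Cox6b2 is highest at 1.62, and Cox7a2l, at −0.73, is the single member below 0.

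MPP1 lay close to HSC. In MPP1 against HSC 0 of 94 members passed by edgeR and 0 by DESeq2, 6 had an unadjusted p under 0.05, and the median was 0.14. Of all genes 0.014% rose and 9.89% had an unadjusted p under 0.05. In MPP2 against MPP1, which shares the MPP2 libraries with the comparison above, 11 members rose and 0 fell, where 3.23% of all genes rose, with a median of 0.37. Ndufc2 led with 1.14 ± 0.20 (adjusted p = 0.000514), followed by Cox6b2 at 1.27 ± 0.30 (adjusted p = 0.00647). The others were Ndufb8, Ndufs1, Ndufa1 and Ndufa10 of complex I, Uqcrc1 of complex III, Cox6c, Cox5b and Cox6a1 of complex IV, and Atp5b of complex V. That count was 1 without MPP1 Het library 2_3, 2 without MPP1 Het library 4, 3 without MPP2 Het library 1 or 4, and 19 without MPP1 Het library 1.

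Between HSC Het and MPP2 Het other markers also differed, and their part was not tested. The stem cell gene Mecom read 239 to 414 CPM in HSC and 35.95 to 50.1 CPM in MPP2, and Hlf 191 to 288 CPM and 29.3 to 67.5 CPM. Late erythroid genes summed to 11.9 to 253 CPM and 398 to 617 CPM, megakaryocyte genes to 121 to 330 CPM and 503 to 1268 CPM, and neutrophil genes to 29.3 to 544 CPM and 178 to 3060 CPM. Without MPP2 Het library 2_3, which held the highest neutrophil sum, 36 members rose and 1 fell.

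Start regions of the members were searched for short words known from factors that act on respiratory genes. RefSeq start regions (build GRCm38.p6, from 250 bases before to 50 after the start) were found for 79 of 96 members. The NRF1 word GCGCATGC, on either strand, was present in 13 of 79, or 16.5%, against 3.6% of 17491 protein-coding genes. The YY1 word ATGGCGGC was present in 8, or 10.1%, against 3.18%, and 7 of the 8 were genes of complex I, which made up 39 of the 79. Only in Ndufa7 and Sdhaf2 did the YY1 word lie wholly before the start. The GABPA word CCGGAAGT was present in 5, or 6.33%, against 5.29%, and the E-box CACGTG in 7, or 8.86%, against 7.9%. At least 1 of the first 3 words was present in 25 members, or 31.6%, against 11.2% of protein-coding genes. The words can overlap one another and were matched letter for letter, so a match describes the sequence and shows no binding. Below are 40 bases around the NRF1 word from 4 members described above, 5′ to 3′ on the strand of the gene, chosen after their values were seen because they carry the word in complexes I, II and V and in cytochrome c. Capitals mark the word or its reverse complement.
Cycs: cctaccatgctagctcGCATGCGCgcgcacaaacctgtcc
Ndufaf4: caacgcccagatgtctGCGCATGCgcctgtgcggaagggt
Sdhb: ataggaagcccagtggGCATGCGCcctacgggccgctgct
Atp5k: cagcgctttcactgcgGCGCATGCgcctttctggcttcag

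In GRCm38.p6 these stretches lie at chr6:50566606-50566645 (minus strand) for Cycs, chr4:24897954-24897993 (plus strand) for Ndufaf4, chr4:140961201-140961240 (plus strand) for Sdhb and chr5:108434426-108434465 (minus strand) for Atp5k.

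Other genes of the pathway are set beside the shares of all genes, of which 9.59% rose and 8.37% fell in MPP2 against HSC, and 4.32% rose in KO against Het averaged over cell types. Of 16 genes of the citric acid cycle and pyruvate dehydrogenase, 9 rose and 0 fell in MPP2 against HSC, with a median of 0.55. On average over cell types 5 of these 16 rose in KO against Het, with a median of 0.29, among them Mdh2 by 0.47 ± 0.10, Suclg1 by 0.36 ± 0.10, Idh3g by 0.32 ± 0.10 and Pdhb by 0.31 ± 0.10. Of 27 assembly factors outside the naming rule, 4 rose and 1 fell in MPP2 against HSC, near the share of all genes, with a median of 0.34, among them Cox17, a copper chaperone, at 1.14 ± 0.26 and Lrpprc at 0.83 ± 0.18. The one that fell was Ttc19, a complex III factor, at −1.02 ± 0.23. In KO against Het 1 of the 27 rose, also near the share of all genes, Ecsit at 0.62 ± 0.17, with a median of 0.13. Of 13 regulators and genes of mitochondrial DNA upkeep, 3 rose in MPP2 against HSC, Pprc1 by 1.14 ± 0.23, Nrf1 by 0.69 ± 0.15 and Polrmt by 0.59 ± 0.21, and 0 passed in KO against Het by edgeR, where 2 had an unadjusted p under 0.05 and the median was 0.10. DESeq2 was not run on these lists.

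Processed copies of respiratory genes are common in the mouse genome and could share reads. Of 93 members with an mm9 transcript, 45 had at least one 50-base word, the read length, elsewhere in the genome, and 26 had over 10% of their words there. Of the 47 tested members with no such word 15 rose in KO against Het averaged over cell types, with a median of 0.29. Of the 19 with up to 10% of their words elsewhere 8 rose, with a median of 0.39, and of the 25 with over 10% there were 12, with a median of 0.38. In MPP2 against HSC 18 of the 47, 7 of the 19 and 15 of the 25 rose, with medians of 0.45, 0.57 and 0.58.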

How the data were processed

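RNA of 24 pooled, sorted libraries was sequenced by the authors as rRNA-depleted stranded paired reads of 50 bases, per the labels' protocols. The deposited values are raw counts for 23364 gene symbols. Build mm9 and, without roles, TopHat2 2.0.9, Bowtie 1.0.0, Trimmomatic 0.33 and featureCounts are named in the list of programs, per the submitters' processing notes. A deposited table of normalized signal for 12186 genes, of which 88 are members, served as an alternative, and how the authors scaled it is not given in the sources used here. Its columns headed Hz were read as Het, from the sample titles.

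The analysis ran edgeR 4.0.16 under R 4.3.3. The filter filterByExpr, with a minimum count of 10, kept 21456 genes, and scaling was by TMM. A single quasi-likelihood fit of the 9 groups left 15 residual degrees of freedom and a common dispersion of 0.466. Tests were two-sided F tests with Benjamini-Hochberg adjustment over all genes and a threshold of 0.05. "Rose" and "fell" mean past it. Standard errors are the absolute log2 change over the square root of F. CPM carry the TMM scaling, and per kilobase values use exon lengths from the count files. Alternatives used DESeq2 1.42.0, limma 3.58.1 on log2(signal + 1), RLE scaling, no filter, a fit of the compared groups, a replicate block and leaving out libraries. The test was checked on simulated data.

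Members and gene lists were chosen with earlier results of these data known. Named members are those past the threshold (at most 25 a comparison, 5 for Sham), the smallest p of a complex with none, isoform families, Cycs and Cyc1, members without overlap in all 3 cell types, and the extremes per kilobase. Atp5s in KO against Het was named after its value was seen.

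Replicate numbers in the labels are 1, 2_3 and 4 (no 1 for Sham). Residuals of same-numbered HSC and MPP2 Het libraries correlated at 0.17, 0.204 and 0.361 over 11036 genes. The values and p-values given for MPP2 against HSC come from the main fit, which does not pair libraries. As an alternative, a replicate block gave 46 risen members in that comparison and 1 that fell. Same-numbered KO and Het libraries did not all correlate above 0.1, with a lowest value of −0.257, in HSC, and a highest of 0.449, in MPP2.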

Additional observations from a re-analysis of the deposited data

Results flagged for a closer look

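The summed level of all members moved in opposite directions between Het and Sham in 2 cell types. Every MPP1 Het library lay above both MPP1 Sham libraries, with a log2 ratio of mean summed CPM of 0.17. Every MPP2 Het library lay below both MPP2 Sham libraries, with a ratio of −0.32. The difference of these sums was not tested. Gene by gene, 0 of 94 members passed the test of that difference by edgeR, 16 had an unadjusted p under 0.05, and Sham had 2 libraries in each cell type.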

How the results depend on the processing

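No member count or median changed direction under any alternative run. With a replicate block 7 members were called in KO against Het in HSC, 1 in MPP1, 24 in MPP2 against MPP1 and 9 in KO against Sham in HSC. Residuals of same-numbered KO and Het libraries correlated at −0.257, 0.0584 and 0.277 in HSC. They correlated at 0.281, 0.083 and 0.261 in MPP1, and at 0.0362, 0.449 and 0.419 in MPP2. The block moved no other count of calls by over 1.5 times. The deposited table with limma called 3 members in KO against Het in HSC and 18 averaged over cell types, and gave a median of 0.39 for MPP2 against HSC. A fit of the compared groups called 23 for MPP2 against HSC and 19 for MPP2 against MPP1, and DESeq2 called 26 for the latter. KO against Sham in HSC had 3 calls with RLE scaling and 0 without the low-count filter (with the filter, 54 had an unadjusted p under 0.05). Single libraries were not left out in the comparisons with Sham. Leaving out a single library gave 0 to 2 calls in KO against Het in HSC, 0 to 1 in MPP1 against HSC, 26 to 40 in MPP2 against HSC, 1 to 20 in MPP2 against MPP1 and 10 to 43 averaged over cell types.

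Leaving out groups of libraries was an alternative chosen after seeing the data. Without the 6 libraries numbered 1 there was 1 call in KO against Het in HSC with a median of 0.17, 3 averaged over cell types, and 27 in MPP2 against MPP1 with a median of 0.48. Without both HSC libraries of fewest detected genes there were 27 calls in MPP2 against HSC and 10 averaged over cell types. The cause of these shifts was not tested.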
